A study of Mus musculus with 3 samples.

Results

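Open chromatin lying far from any protein-coding gene was described in 2 kinds of projection neuron of the mouse brain. Peaks of 3 libraries were merged wherever they overlapped by at least 1 bp, which gave 200802 regions on chromosomes 1 to 19. Of these, 26983 (13.4%) had their summit more than 100 kb from every protein-coding gene body of the RefSeq table for GRCm38.p6 and are called desert regions below, and the other 173819 are called other regions. The summit was that of the peak with the highest fold enrichment in the region. Only position chose the desert regions, so their library class, width and strength were not used in the choice.

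The study profiled sorted callosal projection neurons (CPN), which connect the 2 cortical hemispheres, in 2 libraries (CPN 1 and CPN 2), and corticospinal motor neurons (CSMN), which project from the cortex to the spinal cord, in 1 library. The assay was ATAC-seq: a transposase inserts adapters into DNA that is not wrapped in nucleosomes or otherwise closed. The labels name no treatment or allele, and the sources used here give neither strain nor age of the mice. The deposited lists hold 134018 peaks for CPN 1, 158779 for CPN 2 and 98067 for CSMN, of which 131533, 156024 and 95640 lay on chromosomes 1 to 19. With a single CSMN library there is no replicate check on any difference between the cell types, and no p-value is given. Differences between CPN 1 and CPN 2 show the spread between libraries of 1 cell type, and intervals are Wilson 95% intervals, which cover counting error only. The sources used here give no read depth. At the promoters of genes used to tell these neurons apart, the upper-layer genes Cux1 (folds of 9.89, 9.68 and 3.13 in CPN 1, CPN 2 and CSMN) and Cux2 (9.05, 8.11 and 5.03) and the corticospinal gene Fezf2 (3.54, 3.35 and 2.97) had a peak in all 3 lists, while the promoter listed for Bcl11b had none in any. Promoters of 4, 4 and 2 of 6 microglial genes and of 4, 5 and 4 of 7 oligodendrocyte lineage genes carried a peak in CPN 1, CPN 2 and CSMN. The counts were 8, 9 and 8 of 9 endothelial and mural genes, 11, 14 and 12 of 16 interneuron genes, 6, 6 and 6 of 8 astrocyte genes and 33, 32 and 32 of 36 projection neuron factors, so promoter peaks did not separate the lists by cell type.

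Gene deserts are long stretches of a chromosome without protein-coding genes. Many of those beside developmental transcription factors and cell adhesion genes hold distant enhancers, short elements that bind transcription factors and contact a promoter through a loop of chromatin. The same stretches can also hold long non-coding RNA and microRNA genes, which the distance rule did not count as genes.

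The stretches of sequence below are shown because they are where desert regions met the start of a known transcript. They come from the RefSeq tables for GRCm38.p6, in which 2016 promoter windows of non-coding genes lay in deserts, each running from 250 bases before to 50 after the start. The 4 promoters are the one with the highest folds in all 3 lists (Gm29998, chr19:33391551-33391850, plus strand), the start of the long non-coding gene 5730522E02Rik (chr11:26210527-26210826, minus strand), the strongest CPN-only one (Gm31115, chr4:64282468-64282767, plus strand) and the strongest CSMN-only one (Gm40604, chr10:15760024-15760323, minus strand). In the first pair capitals mark CG dinucleotides, and in the second pair they mark matches to the motifs described with the promoter results.
Gm29998: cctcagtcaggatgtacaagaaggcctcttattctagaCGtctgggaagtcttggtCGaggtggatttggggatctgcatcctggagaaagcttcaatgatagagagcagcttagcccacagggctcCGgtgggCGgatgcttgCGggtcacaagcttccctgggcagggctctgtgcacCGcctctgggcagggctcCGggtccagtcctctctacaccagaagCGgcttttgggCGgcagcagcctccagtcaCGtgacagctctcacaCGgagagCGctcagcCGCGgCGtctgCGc
5730522E02Rik: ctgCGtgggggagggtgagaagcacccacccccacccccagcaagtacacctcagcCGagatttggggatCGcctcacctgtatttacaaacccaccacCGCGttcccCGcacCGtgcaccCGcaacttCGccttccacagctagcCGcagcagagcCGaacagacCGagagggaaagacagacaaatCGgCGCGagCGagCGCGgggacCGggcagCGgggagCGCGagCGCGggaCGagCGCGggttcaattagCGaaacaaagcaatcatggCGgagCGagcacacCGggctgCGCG
Gm31115: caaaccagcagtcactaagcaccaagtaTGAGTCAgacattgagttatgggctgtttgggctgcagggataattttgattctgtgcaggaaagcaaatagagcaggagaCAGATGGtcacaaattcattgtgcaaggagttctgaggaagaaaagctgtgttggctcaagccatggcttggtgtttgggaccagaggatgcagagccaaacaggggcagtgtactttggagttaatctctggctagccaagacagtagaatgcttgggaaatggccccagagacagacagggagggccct
Gm40604: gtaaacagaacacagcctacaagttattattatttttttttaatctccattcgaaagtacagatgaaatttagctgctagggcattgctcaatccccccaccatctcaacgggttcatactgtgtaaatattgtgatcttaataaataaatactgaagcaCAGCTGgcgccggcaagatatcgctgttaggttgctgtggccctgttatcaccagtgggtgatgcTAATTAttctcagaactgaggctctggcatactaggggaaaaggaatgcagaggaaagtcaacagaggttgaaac

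The Gm29998 window has 16 CG dinucleotides and a GC content of 61%, and that of 5730522E02Rik has 33 and 65.3%. Gm31115 has no CG and a GC content of 49%, with a match to AP-1 and to the E-box CAGATGG. Gm40604 has 5 CG dinucleotides and a GC content of 41.7%, with the E-box CAGCTG and the homeodomain motif TAATTA. The Gm29998 region had folds of 23.8, 23.2 and 16.3 in CPN 1, CPN 2 and CSMN, above 99.3%, 99.2% and 99.4% of each list. Gm31115 had folds of 15.3 and 14.9 in the CPN lists and no CSMN peak, with the summit 6 bp after its start. Gm40604 had a CSMN fold of 3.04, near the middle of that list, and no CPN peak.

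A cluster of miR-344 genes in the desert between Gm51483 and Ndn on chromosome 7 gave the second set, since its members share seeds, the bases 2 to 8 that pair with target mRNAs. The seed is in capitals. The first group shares GUCAGGC, the second GAUCUAG and the third AUAUAAC.
miR-344-5p: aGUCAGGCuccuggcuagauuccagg
miR-344c-5p: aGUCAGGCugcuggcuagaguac
miR-344g-5p: aGUCAGGCuccuggcaggagu
miR-344d-1-5p: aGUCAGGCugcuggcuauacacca
miR-344b-5p: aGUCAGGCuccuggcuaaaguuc
miR-344d-3-5p: aGUCAGGCuagugguuauacucc
miR-344-3p: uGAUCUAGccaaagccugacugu
miR-344c-3p: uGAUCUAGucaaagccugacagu
miR-344d-3p: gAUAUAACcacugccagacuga
miR-344e-3p: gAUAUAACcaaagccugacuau

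The library classes of desert regions differed from those of other regions mainly in the regions found in CSMN alone. CSMN-only regions made up 20.6% (20.1 to 21.1) of desert regions and 10.3% of other regions, beside 11.6% of all autosomal regions, a difference of 10.3 percentage points. The counterparts for a single CPN library differed by -0.45 points for CPN 1 (12.6% of desert against 13.0% of other regions, 13% of all) and by -4.55 points for CPN 2 (17.2% against 21.7%, 21.1% of all). The shares sum to 100%, so a larger CSMN-only share lowers the others. With CSMN-only regions left out of the total, CPN 1 alone was 15.8% of desert regions against 14.5% of other regions and CPN 2 alone 21.6% against 24.2%, so the sign for CPN 1 turned. Regions in all 3 libraries were 26.0% of desert regions and 31.0% of other regions, beside 30.3% of all. CPN-only regions, which both CPN libraries share and CSMN lacks, were 17.9% against 19.8%, beside 19.5% of all. The small mixed classes were 3.03% against 1.94% for CPN 1 with CSMN (2.09% of all) and 2.79% against 2.29% for CPN 2 with CSMN (2.36% of all). Seen from the class, 23.8% of all CSMN-only regions lay in deserts, against 12.3% of CPN-only regions and 11.5% of those in all 3 libraries.

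**Figure D1:**
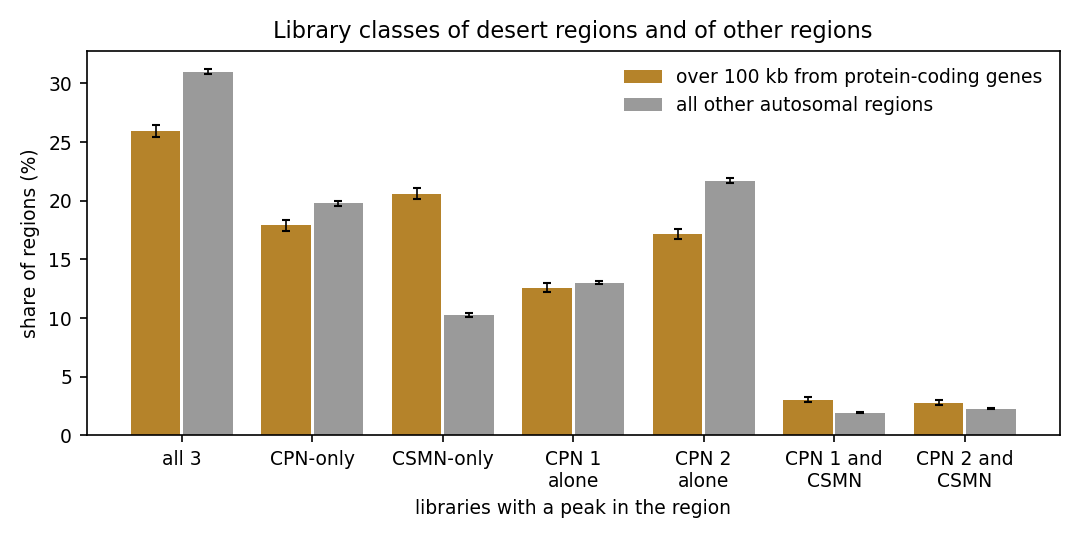
Share of desert regions (brown) and of other autosomal regions (grey) in each library class, in percent, with Wilson 95% intervals as bars. CSMN-only regions stand at 20.6% against 10.3%, while the CPN 1 alone bars are close together at 12.6% and 13.0%.

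CPN-only needs a peak in 2 lists and CSMN-only a gap in 2 lists, so the balance between them is read only between places and not as a level. CSMN-only regions were 53.5% (52.6 to 54.5) of the CSMN-only and CPN-only desert regions together and 34.2% of those elsewhere. The share was 32.2% inside genes, 35.3% within 20 kb of one, 39.4% at 20 to 100 kb, 45.2% at 100 to 200 kb, 53.7% at 200 to 500 kb and 72.1% (70.1 to 74.1) beyond 500 kb, so it was higher in each bin farther out. The CSMN list is the shortest, and with each list held to its 98067 peaks of lowest p the same bins ran from 53.8% inside genes to 81.7% beyond 500 kb. Among peaks with a −log10 q of at least 5, called strong below, the share ran from 7.57% inside genes to 36.9% beyond 500 kb. Under these rules regions were merged and classed again from the kept peaks alone, so a region can change class. Desert regions had the higher share on each of the 19 autosomes, with desert values of 43.4% to 64.2% and other values of 22.7% to 42.6%.

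In bases, deserts covered 680 Mb, or 28.0% of the 2429 Mb between the first and last protein-coding gene of the autosomes, and 89 desert regions lay beyond those genes. Lengths were counted from gene positions alone, and no unassembled or unmappable sequence was taken out of them. All classes together had 39.5 regions per Mb in deserts and 99.3 per Mb elsewhere. The ratio of the 2 densities was 0.800 for CSMN-only regions, against 0.333 for regions in all 3 libraries, 0.361 for CPN-only, 0.385 for CPN 1 alone and 0.314 for CPN 2 alone. Of the mixed classes, CSMN with CPN 1 was at 0.619 and CSMN with CPN 2 at 0.484, so the ratio was highest for CSMN-only regions.

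Desert length separated the classes in the same way. Desert length here is what remains after 100 kb beside each flanking gene is taken off. In the 656 deserts under 200 kb there were 15.8 CPN-only regions per Mb and 9.24 CSMN-only ones. In the 67 deserts over 2 Mb there were 2.35 and 6.49. Regions in all 3 libraries were at 18.3 and 4.82 per Mb in the same shortest and longest deserts. The CSMN-only share went from 36.9% (34.4 to 39.6) in the shortest to 73.4% (71.3 to 75.5) in the longest, and among strong peaks from 10.2% to 36.5%.

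**Figure D2:**
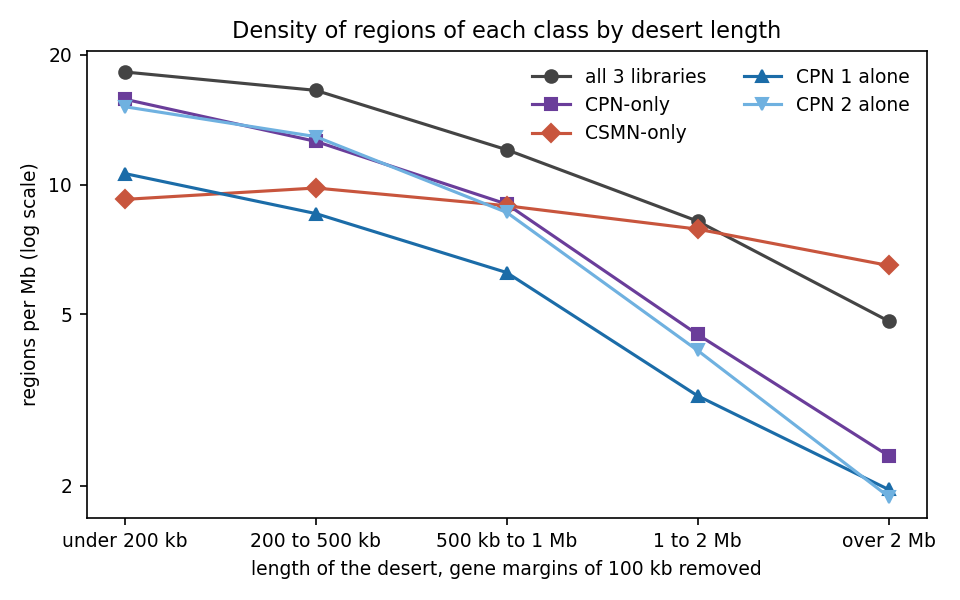
Regions per Mb (log scale) in deserts of 5 length classes, for 5 library classes. The CSMN-only line goes from 9.24 to 6.49 per Mb, while the CPN-only line goes from 15.8 to 2.35.

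The strength of the peaks moved with these differences. Deserts held 12.3% of the CPN 1 peaks, 11.6% of the CPN 2 peaks and 15.0% (14.8 to 15.2) of the CSMN peaks, but 12.4%, 11.5% and 12.3% of the strong peaks, where CSMN lay within the range of the CPN lists. The weakest CSMN peaks, with a −log10 q of 1.3 to 2, were in deserts in 20.2% of cases, against 7.74% in CPN 1 and 12% in CPN 2. At a −log10 q of 50 or more the order was reversed, with 4.27% in CSMN, 6.60% in CPN 1 and 5.83% in CPN 2. Strong peaks were 44.7% of the CSMN desert peaks and 56.4% of its other peaks, while in CPN 1 they were 72.5% and 72.1% and in CPN 2 64.8% and 65.1%. Of the CSMN-only desert regions of the full lists, 15.9% held a strong peak. Their median highest −log10 q was 3.14, against 2.73 for CSMN-only regions elsewhere, of which 12.4% held a strong peak. For desert regions in CPN 1 alone it was 3.83, with a strong peak in 32.0%, and in CPN 2 alone 3.43, with 24.2%. Desert regions in all 3 libraries had 23.0 and CPN-only ones 9.60, where the highest is taken over more than 1 list. In each range of −log10 q below 50, regions of CSMN alone held a larger share of CSMN desert peaks than of its other peaks. At 3 to 5 the shares were 48.5% and 33.0%, and at 5 to 10 22.6% and 11.1%. The shares of CPN 1 peaks in CPN 1 alone were 46.2% and 46.3%, then 22.5% and 19.5%. Those of CPN 2 peaks in CPN 2 alone were 47.3% and 51.4%, then 19.3% and 23.6%. The part that peak strength and the background of the CSMN library have in the CSMN-only share was not tested.

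**Figure D3:**
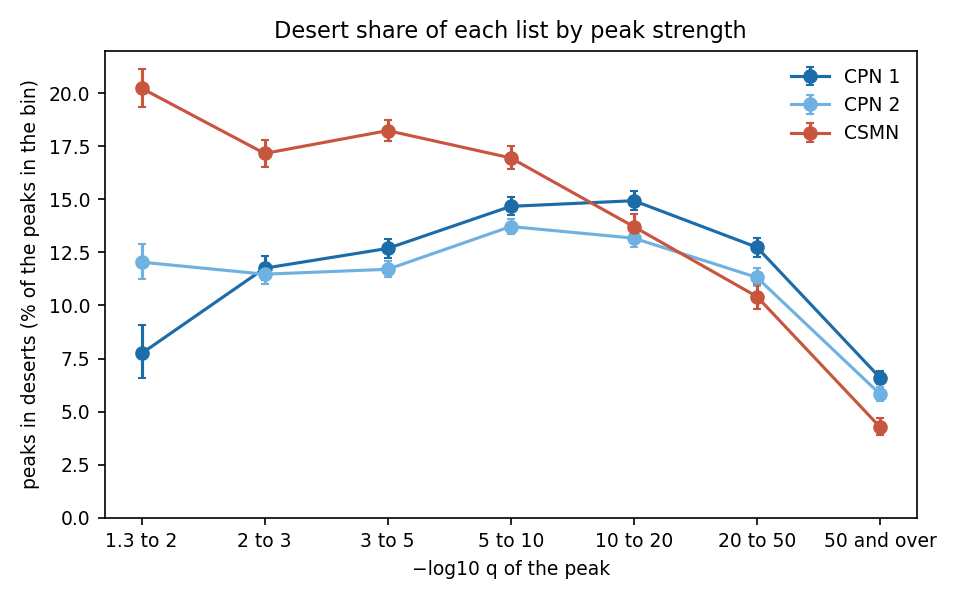
Percent of each library's autosomal peaks that lie in deserts, by the −log10 q of the peak, with Wilson 95% intervals. The CSMN line starts at 20.2% and ends at 4.27%, crossing the 2 CPN lines between.

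Peaks of the CSMN list were also less often met in the CPN lists when they lay in deserts. A CPN 1 peak lay in the same merged region as 56.0% of the CSMN desert peaks and 73.2% of its other peaks. For CPN 2 the values were 55.5% and 73.9%. Among strong peaks the values were 82.3% and 93.0% for CPN 1 and 81.6% and 93.3% for CPN 2. Between the 2 CPN lists the gap was smaller, with 74.0% of CPN 1 desert peaks and 77.4% of its other peaks met in CPN 2, and 70.2% and 69.7% of CPN 2 peaks met in CPN 1. CPN peaks met in CSMN showed little gap, with 49.1% and 50.5% for CPN 1 and 46.7% and 46.9% for CPN 2. Among strong peaks these were 59.3% and 63.7% for CPN 1 and 59.9% and 62.6% for CPN 2. Strong CPN 1 peaks were met in CPN 2 in 87.6% and 92.1% of cases, and strong CPN 2 peaks in CPN 1 in 88.1% and 88.3%. For the 7003 desert regions shared by all 3 libraries, each fold was ranked among the shared regions, from 0 to 100. The CSMN rank minus the mean CPN rank had a median of 1.62 (quartiles of -11.3 and 15.1) in deserts and 0.23 elsewhere, a difference small beside the spread between regions, and the CPN 1 minus CPN 2 rank had a median of 0.18 in deserts.

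Desert regions were slightly narrower, with a median of 231 bp (quartiles of 155 and 388) against 247 bp (155 and 451). The single peaks differed in each list, with medians in and outside deserts of 265 and 297 bp in CPN 1, 193 and 204 bp in CPN 2 and 237 and 289 bp in CSMN. The largest class difference was in the regions shared by all libraries, whose median was 481 bp in deserts and 581 bp elsewhere. Within the other classes the medians were close, at 283 and 284 bp for CPN-only, 181 and 177 bp for CSMN-only, 170 and 172 bp for CPN 1 alone and 128 and 129 bp for CPN 2 alone. The 1000 peaks of highest fold were mostly outside deserts, which held 11 of them in CPN 1, 21 in CPN 2 and 17 in CSMN.

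The desert regions lay in 1250 of 1393 deserts, with a median of 14 in each that held any, and 225 deserts held the upper 50% of them. The most, 143, lay between Cdh26, a cadherin gene, and 4930591A17Rik on chromosome 2. There were 136 between Bcl11a, a zinc finger factor of cortical projection neurons, and Fancl, and 130 between Zeb2, a zinc finger repressor, and the activin receptor gene Acvr2a. The same number, 130, lay between Mn1, a transcriptional regulator, and the crystallin gene Cryba4, which was also the densest of the deserts of at least 500 kb, with 220.5 regions per Mb against a median of 30.5. After these came Celf4 to Pik3c3 with 123, and Rps24 to Zmiz1, Epha7 to Map3k7 and Slc10a2 to Efnb2 with 122 each. Olfm4 to Pcdh17 held 119 and Gm6569 to Adgrb1 112. The other dense ones were Cdh26 to 4930591A17Rik with 196.5 per Mb, Prl5a1 to Sox4 with 174.1, Matn1 to Ptpru with 169.7 and Nphp4 to Ajap1 with 160.6.

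Single deserts differed widely in this balance. The largest CPN-only excess was between Rps24 and Zmiz1, a transcriptional coregulator, with 34 CPN-only regions and 3 CSMN-only ones. Beside Epha4, an ephrin receptor of axon guidance, Enc1, a gene of the neuronal cytoskeleton, and Zfp608, a zinc finger gene, there were 27 CPN-only regions and 1 CSMN-only region in each desert, and Mn1 to Cryba4 had 29 and 3. Each of these 5 had a CPN-only excess among strong peaks, from 22 against 0 beside Enc1 to 32 against 1 beside Mn1. Strong peaks are fewer in the CSMN list, and a shared region whose CSMN peak is below the cutoff can then count as CPN-only. The excess among strong peaks is therefore no separate check. With lists of equal length they had 14 to 21 CPN-only and 2 to 9 CSMN-only regions.

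The largest CSMN-only excess was between the cadherin genes Cdh6 and Cdh9, with 45 CSMN-only regions and 5 CPN-only ones. Next came Olfm4 to Pcdh17 with 46 and 11, Cntnap5b to Cdh20 with 34 and 2, Nr2f1 to Arrdc3 with 40 and 11, and D3Ertd751e to Pcdh10 with 34 and 5. Of these 5 deserts 4 end at a cadherin or protocadherin gene, whose products join cells by adhesion, and the fifth begins at Nr2f1, a nuclear receptor that patterns cortical areas. They were all long, from 2.48 Mb to 4.22 Mb. Among strong peaks the excess was smaller, with 12 CSMN-only against 8 CPN-only regions between Cdh6 and Cdh9 and 11 against 7 between Olfm4 and Pcdh17. There were 7 against 4 between Cntnap5b and Cdh20 and 9 against 8 between D3Ertd751e and Pcdh10. Beside Nr2f1 there were 8 strong CSMN-only regions against 13 strong CPN-only ones. Over all deserts strong peaks gave 1207 CSMN-only against 4581 CPN-only regions, a share of 20.9%. In deserts over 2 Mb, the length class of these 5, they gave 273 against 475, a share of 36.5%. The counts of the 5 are read beside these levels. The 5 were chosen by their excess in the same lists, so the strong counts are no separate check.

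**Figure D4:**
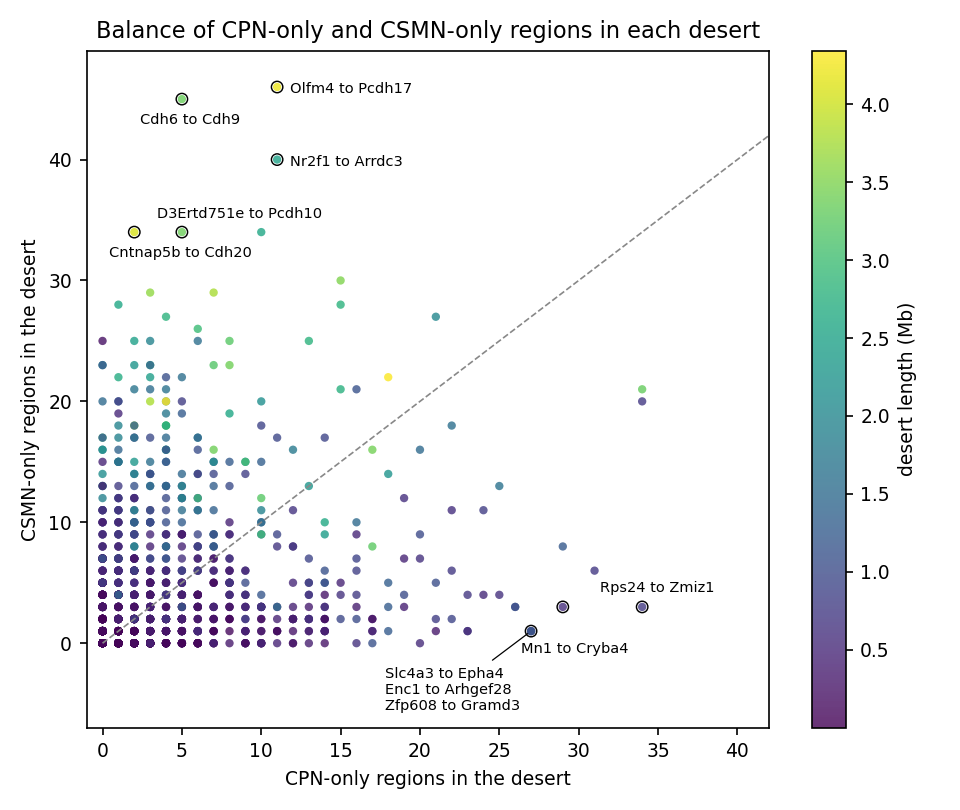
CPN-only (x axis) and CSMN-only (y axis) regions in each of the 1393 deserts, coloured by length in Mb, with equal numbers on the dashed line. The 10 circled deserts have the largest excess in either direction, and those high on the y axis are over 2 Mb long while Rps24 to Zmiz1 and Mn1 to Cryba4 are under 1 Mb.

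Genes at the edges of these deserts were described by list. Of the 20661 autosomal protein-coding genes 2149 (10.4%) flanked a desert with a region, with a median of 16 regions beside each. Which class was the larger beside a gene depended on the list rule, which also moved the level of all deserts. The CSMN-only share of CSMN-only and CPN-only desert regions was 53.5% in the full lists. It was 70.4% with lists of equal length and 20.9% with strong peaks. A change in the larger class is thus not by itself a change relative to other deserts. Of the 42 listed genes with most regions 33 changed direction, or were equal, with strong peaks or with lists of equal length. The CPN-only count was larger under each rule beside 8, which were Epha4, Plxna2, Id4, Hes1, Maf, Sox6, Pdgfra and Sall3, and the CSMN-only count beside Cdh9. Values below without a rule are from the full lists. Of the 21 cadherin and non-clustered protocadherin genes 20 flanked a desert with a region, with a median of 63 regions. In their 30 deserts there were 405 CSMN-only and 123 CPN-only regions, a share of 76.7% against 53.5% for all deserts. Pcdh17 had, on its 2 sides, 57 CSMN-only and 21 CPN-only ones, Cdh9 59 and 7, Cdh11 36 and 25, and Cdh8 24 and 19. Strong peaks alone gave these genes' deserts 106 CSMN-only and 137 CPN-only regions, a share of 43.6%. Cadherin genes flank some of the longest deserts, and all deserts over 2 Mb had a share of 73.4%, or 36.5% with strong peaks. The share beside cadherin genes was not compared with deserts of matched length.

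Genes of synaptic adhesion, which hold the pre- and postsynaptic membranes together, flanked deserts in 25 of 33 cases, with 399 CSMN-only and 204 CPN-only regions (66.2%). Slitrk1, a postsynaptic adhesion gene, stood beside 55 CSMN-only regions and 14 CPN-only ones. Adgrl2, a latrophilin receptor gene, had 201 regions beside it, with 27 and 43. Flrt2 had 19 and 21 and Adgrl3 20 and 18. With lists of equal length all 4 had more CSMN-only regions, and with strong peaks all 4 had more CPN-only ones, 8 and 12 for Slitrk1 and 2 and 39 for Adgrl2. Glutamate and GABA receptor genes did so in 15 of 22 cases, with 109 and 59 (64.9%), among them Grik2, a kainate receptor subunit, with 29 CSMN-only and 8 CPN-only regions and Gria2, an AMPA receptor subunit, with 12 and 5. Grm7, a metabotropic glutamate receptor, had 12 of each, and Grin2a, an NMDA receptor subunit, had 3 and 7. Strong peaks gave 29.5% for synaptic adhesion and 28.2% for the receptors, above the 20.9% of all desert regions. As with the cadherin genes, these shares were not compared with deserts of matched length.

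Transcription factors of cortical projection neurons flanked deserts in 31 of 46 cases, with a median of 59 regions beside each. Their deserts held 305 CSMN-only and 337 CPN-only regions (47.5%). Strong peaks gave a share of 17.8%, against 20.9% for all desert regions. Bcl11a had 27 CSMN-only and 21 CPN-only regions, Zeb2 30 and 15, and Nr2f1 40 and 11. With strong peaks the CPN-only count was the larger beside each, as in all deserts together, at 7 and 22, 10 and 16, and 8 and 13. Sox4, a factor of young neurons, had 12 and 22, but 17 and 13 with equal lists. Axon guidance genes flanked deserts in 23 of 30 cases (187 CSMN-only and 193 CPN-only regions, 49.2%), among them 2 ephrin receptors. Epha7 stood beside 48 CSMN-only regions and 15 CPN-only ones, and Epha4 beside 1 and 30. Strong peaks gave Epha7 12 and 17 and Epha4 0 and 34, and equal lists 62 and 9 and 4 and 24. Efnb2, an ephrin ligand, had 21 and 34 but 29 and 20 with equal lists, and Plxna2, a semaphorin receptor, had 5 and 21.

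Genes of other cells and tissues were listed for comparison. Developmental transcription factors of other tissues flanked deserts in 30 of 37 cases, with 153 CSMN-only and 182 CPN-only regions (45.7%). Among them Sall3 had 8 and 29, Irx1 14 and 19, Irx2 15 and 16, and Gata3 13 of each. Cortical progenitor genes did so in 8 of 17 cases (46.4%), with 152 regions beside Sox2, a factor of neural stem cells, of which 53 were in all 3 libraries. Id4 had 2 CSMN-only and 22 CPN-only regions, Hes1 2 and 10, and Tnc 9 and 2. Interneuron lineage genes flanked deserts in 12 of 21 cases (49.5%), with Nr2f2 at 10 of each, Satb1 at 15 and 6, Maf at 4 and 11 and Prox1 at 2 and 7. Astrocyte genes did so in 4 of 10 cases, with 25 CSMN-only and 25 CPN-only regions. Endothelial and mural genes did so in 3 of 12, with 35 and 25 (58.3%), above the 53.5% of all deserts. Strong peaks gave this list 27.3% (9 and 24), above the 20.9% of all desert regions. Shares above these levels were thus not limited to the neuronal lists. Strong peaks gave 15.4% for the factors of other tissues, 15.7% for progenitor, 12.9% for interneuron and 10.3% for astrocyte genes. Oligodendrocyte lineage genes flanked deserts in 2 of 10 cases, with 3 CSMN-only and 20 CPN-only regions. Of those, 12 CPN-only and no CSMN-only regions lay beside Pdgfra, the growth factor receptor of oligodendrocyte precursors. Merging strong peaks alone gave 10 CPN-only and no CSMN-only regions there. Among 10 microglial genes only Irf8 flanked a desert with a region, with 4 CSMN-only and 3 CPN-only regions and no strong CSMN-only one. What other cell types in the sorted samples add to these counts was not tested.

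Deserts of protein-coding genes are not empty of transcripts. Of the desert summits 18.2% lay inside a long non-coding RNA gene, against 10.1% of the other summits. The most, 87, were in 2610307P16Rik on chromosome 13, beside Sox4, of which 30 were in all 3 libraries, 22 CPN-only and 9 CSMN-only. A930011G23Rik on chromosome 5 held 64, 5730522E02Rik on chromosome 11 held 53 and Gm19859 on chromosome 15 held 44. The T cell receptor alpha locus, Tcra, on chromosome 14 also held 64, because receptor and immunoglobulin segments are not classed as protein-coding in the gene table. Within 10 kb of such a segment lay 107 desert summits.

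Starts of non-coding genes in deserts were open less often than starts elsewhere. Of the 2016 promoter windows in deserts 405 (20.1%, 18.4 to 21.9) overlapped a region, against 33.3% of 9295 windows of non-coding genes elsewhere and 68.2% of 20084 of protein-coding genes. The open desert windows had a median of 4 CG dinucleotides and a GC content of 48.7%, and those without a region 2 and 44.0%, while open protein-coding windows had 21 and 61.3%. The homeodomain motif TAATTA was in 13.1% of open desert windows, 8.69% of the desert windows without a region and 5.26% of all autosomal promoters. The E-box CAGCTG was in 23.0%, 13.6% and 16.3%, and the nuclear factor I motif TTGGCA in 21.7%, 18.2% and 14.1%. The E-box CAGATGG was in 7.90%, 6.27% and 5.32%, and the AP-1 motif TGACTCA in 5.68%, 6.33% and 5.26%. Open non-coding windows elsewhere had a median GC content of 56.3%, with TAATTA in 3.65%, CAGCTG in 21.4% and TTGGCA in 14.7%. In those windows CAGATGG was in 6.43% and TGACTCA in 4.75%. The sets differ in base composition, and its part in these shares was not tested. Both strands were searched, these motifs share no full match with each other, and a match is only a run of letters.

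Desert regions lay at several small RNA genes of the miR-344 cluster. The desert between Gm51483 and Ndn, an imprinted gene of neurons, held 15 regions in 1.03 Mb, of which 10 were in all 3 libraries, 1 was CPN-only and none was CSMN-only. Of the 13 miR-344 genes there 8 had a summit within 10 kb, a smaller share than the 78.9% of all 114 miRNA genes in deserts. At 7 of them the region was found in all 3 libraries and spanned the hairpin, with the summit 5 to 133 bp upstream of it. The folds in CPN 1, CPN 2 and CSMN were 17.7, 16.4 and 9.20 at Mir344c (chr7:61837215-61837837). At Mir344 they were 15.7, 17.2 and 9.54. At Mir344-2, whose mature sequences equal those of Mir344, they were 17.4, 16.7 and 9.72.

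These 3 peaks ranked above 95.4% or more of each CPN list and above 93.4% or more of the CSMN list. The next were Mir344i with 12.5, 12.3 and 6.51, Mir344g with 10.8, 7.45 and 5.55, Mir344f with 9.48, 7.45 and 6.16, and Mir344d-1 with 5.20, 3.21 and 2.69. The order by fold was thus much alike in each list, with Mir344d-1 lowest. At Mir344d-2 the region was CPN-only, with folds of 3.35 and 3.65 and its summit 91 bp past the hairpin. Mir344d-3, Mir344e, Mir344h-1, Mir344h-2 and Mir344b had no summit within 10 kb. Of the 7 genes with the seed GUCAGGC 5 had a near region, as did each of the 3 with GAUCUAG and 2 of the 4 with AUAUAAC. Among all 13 genes it was 8. The genes are close copies, so how reads were split between them is uncertain.

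**Figure D5:**
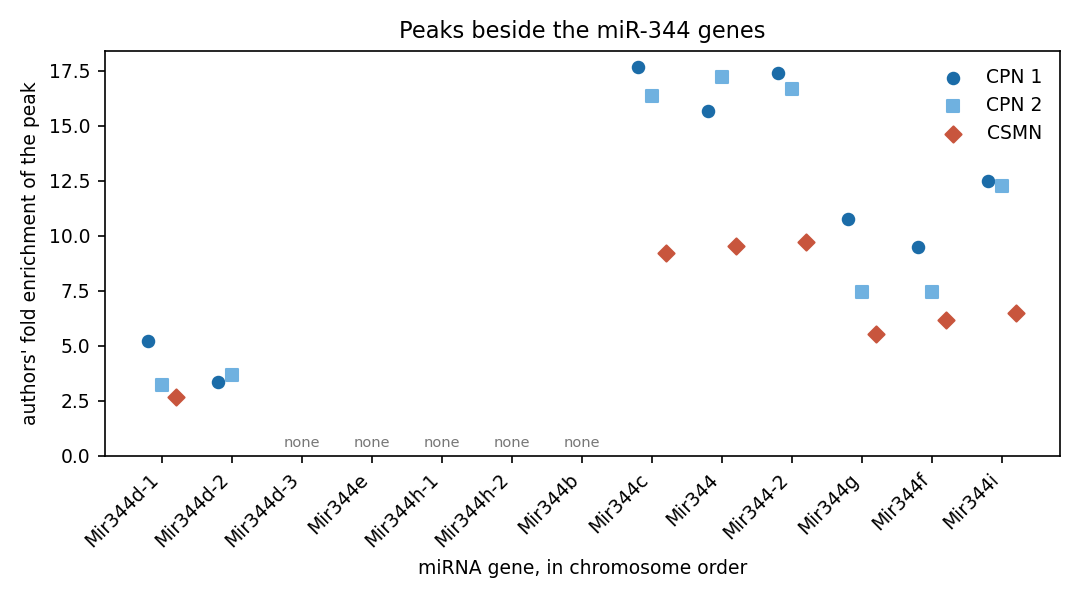
The authors' fold enrichment of the nearest peak in each library at the 13 miR-344 genes, in chromosome order, where "none" marks the 5 genes with no summit within 10 kb. Folds of different lists are on different scales, and in each list the values at Mir344c, Mir344 and Mir344-2 are the highest of the cluster.

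Among all 114 miRNA genes that lay in deserts 90 (78.9%) had a region within 10 kb, against 87.8% of 1022 elsewhere. The 39 miRNA genes within 10 kb of a desert summit between Rtl1 and Dio3 share only 5 nearest regions. Mir137, a miRNA of neurons on chromosome 3, had a summit at 121 bp with folds of 3.71, 3.44 and 3.80, and 5 of the 7 regions within 10 kb were in all 3 libraries. Mir124a-2, from the family of the most abundant neuronal miRNAs, also had 7 such regions, 5 of them in all 3 libraries, but the nearest was found in CPN 2 alone with a fold of 3.98. Mir125b-2 had a summit at 1723 bp with folds of 13.6, 14.0 and 10.1. Mir100 had a CPN-only region at 380 bp, with folds of 4.05 and 4.24.

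The strongest desert regions of all were unlike the rest. On chromosome 8 a region of 327 bp between Myom2 and Csmd1 (chr8:15519789-15520115) had folds of 67.8, 90.5 and 52.0 and was the first of each list by fold. Regions at chr12:3109873-3110099 (227 bp, folds of 51.3, 63.7 and 41.1) and chr6:3201176-3201601 (426 bp, 59.0, 75.6 and 39.6) ranked within the first 9 of each list. A region between Pex2 and 1700008P02Rik on chromosome 3 (431 bp) had 38.2, 47.7 and 32.2. One at chr8:20121672-20123065 (1394 bp) had 36.3, 48.0 and 20.7, and one between Cntnap5b and Cdh20 (151 bp) had 43.3, 59.6 and 18.9. The peak at chr2:98666248-98667325 between Lrrc4c and Iftap had the highest −log10 q of each list, at 8418, 6807 and 3200, at folds of only 22.7, 27.1 and 14.9. The median width of the 1000 peaks of highest fold was 835, 692 and 955 bp in the 3 lists, so the narrow regions here were unusual for their fold. The sources used here do not say whether the authors left out repeated sequence, and the part of copy number in these folds was not tested. The others of the first 10 by rank lay beside Myt1l, a neuronal zinc finger factor (26.2, 25.0 and 18.3), beside Ogfrl1 (24.8, 24.2 and 18.6) and at Gm29998.

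Of the CPN-only desert regions the strongest was also narrow, 120 bp between Ddx18 and Dpp10 with folds of 35.7 and 52.5. The next were at chr12:22030454-22031285 (17.9 and 16.8), at the start of Gm31115, between Ubash3b and Gm40514 (12.7 and 14.4) and beside Sox11, a factor of young neurons (13.2 and 12.3). The desert from Ubash3b to Gm40514, which holds Mir100 and Mir125b-1, had 20 CPN-only and no CSMN-only regions among 69, and Sox11 to Dcdc2c had 14 and 1 among 38.

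The highest CSMN-only folds, above 89.6% and 88.4% of the CSMN list, were 7.38 and 6.94 in 1 desert of chromosome 8, between 9530057J20Rik and Gm15319. That desert of 202 kb held 25 CSMN-only regions and no CPN-only region among its 37, and merging strong peaks alone gave 24 and 0. It also holds the region at chr8:20121672-20123065, which is among those of very high fold named above. The part of copy number in its CSMN-only regions was not tested. The following CSMN-only regions had folds of 6.25 between Tspyl5 and Gm41291, 6.25 between Tent5a and Ibtk and 6.16 between Sim1 and Lilr4b. The most distant desert region lay 2243 kb from a gene, between Celf4 and Pik3c3, and was CSMN-only with a fold of 2.26. The regions just inside the distance limit, at 100007, 100008 and 100010 bp, were found in all 3 libraries, in CPN 2 alone and in CPN 1 alone. Their CPN folds were 3.05 (CPN 1) and 2.92 (CPN 2), 3.80 and 2.66. Those just outside, at 99999, 99993 and 99991 bp, were in all 3 libraries for the first pair and in CPN 1 alone for the last. Their CPN 1 folds were 6.48, 2.78 and 2.36.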

How the data were processed

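ATAC-seq peak lists of 2 CPN libraries and 1 CSMN library were used, grouped by the cell type in the labels. The build mm10 and the tools MACS2 2.2.7.1, BWA 0.7.17 and bedtools 2.29.2 appear in the submitters' processing notes, with no role for any, and no read filter or depth is stated in the sources used here. The peak names of each deposited list hold 1 library's name, so peaks were taken as called per library by the authors. The deposited fold enrichment, −log10 p, −log10 q and summit offset are the authors' values. The deposited score was checked to be 10 times the −log10 q, cut to a whole number, in over 99.9% of peaks.

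Peaks were merged by 1 bp and placed against 20661 autosomal protein-coding genes of the RefSeq table (GRCm38.p6), with Python 3.11.15, pandas 2.3.3 and scipy 1.17.1. Deserts are thus relative to that table, and a gene it does not hold is not counted. Merging and distances were tested on simulated data, and bedtools 2.31.1 gave the same 200802 regions. Folds were compared only within a list, except that the summit of a region was taken from its peak of highest fold in any list. Without a genome, sequences at summits were not analysed here, and the motif counts were made on RefSeq promoters in place of them. Regions and deserts were named by rank (the strongest and most distant regions, the deserts with most regions, the largest excess or density), and genes as the up to 4 of each list with most regions, besides the miRNA genes, which were named after their values were seen. The members and lists were chosen with earlier results of these data known. On the lists, 10 alternatives were run.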

Additional observations from a re-analysis of the deposited data

Results flagged for a closer look

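The difference between desert and other regions in the share found in 1 library alone was 10.3 percentage points for CSMN, -0.45 for CPN 1 and -4.55 for CPN 2. It was singled out because the shares of the cell types differed in opposite directions, and the difference was not tested, since there is 1 CSMN library. The shares sum to 100%, and with CSMN-only regions left out of the total, an alternative chosen after seeing the data, the CPN 1 difference was 1.33 and the CPN 2 difference -2.58, so the opposite direction did not hold for CPN 1.

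The X chromosome was outside the main measurement. It held 375 desert regions among 2599 (14.4%), of which 41 were CSMN-only and 103 CPN-only. The CSMN-only share of these classes was 28.5% (Wilson 95% interval of 21.7 to 36.3), against 34.5% elsewhere on the X, the reverse of the order on each of the 19 autosomes, although the interval holds the value elsewhere.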

How the results depend on the processing

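The higher CSMN-only share in deserts kept its direction under all 10 alternatives. Values below are the CSMN-only share of CSMN-only and CPN-only desert regions, its difference from other regions in percentage points, the all-library share, the CPN-only share and the median width, where they moved beyond their counting interval. With lists of equal length they were 70.4%, 15.2, 29.7%, 14.2% and 273 bp. With a −log10 q of at least 5 they were 20.9%, 11.2, 30.5%, 30.6% and 327 bp over 14990 regions. With 50 kb as the limit they were 50.2%, 16.8 and a CPN-only share of 18.4%, and with 200 kb 59.4%, 24.5 and 16.6% over 14872 regions. Counting genes of any type left 4595 regions with 68.6%, 32.3, 24.4%, 14.1% and 223 bp. Peaks of at least 150 bp gave 57.1%, an all-library share of 27.4%, a CPN-only share of 16.9% and 286 bp, and merging by at least 100 bp gave 57.4%, 17.7, 24.1%, 15.9% and 219 bp. Without either CPN replicate the CSMN-only share was 39.6% to 43.4%, the difference 15.6 to 17.1, the all-library share 32.2% to 34.9%, the CPN-only share 36.9% to 40.9%, the width 214 to 252 bp and the number of regions 22399 to 24146; a CPN-only region then needed 1 list. Placing whole regions in place of summits moved nothing beyond its interval. The cause of these shifts was not tested, apart from the peaks or genes each alternative removes by construction. No paired analysis was possible because the groups share only replicate number 1 and no test was made. Weak peaks limit the CSMN-only class, since 15.9% of its desert regions held a strong peak, and leaving out the CSMN library would leave no comparison.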
